A study of Mus musculus with 12 samples.

Results

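Embryos at the 2-cell stage that had been injected with a morpholino oligonucleotide (MO) against Oct4 were compared directly with 2-cell embryos injected with an MO against Ccna2. Both groups underwent cytoplasmic microinjection, in separate experiments. The comparison used 6 of the 12 arrays of the series, the 3 labelled as Oct4-MO injected and the 3 labelled as Ccna2-MO injected. Embryos came from wild type F1 (C57BL6xDBA/2) females of 3-5 weeks that had been superovulated and mated with wild type males, and they were injected at the 1-cell stage. The Oct4-MO was directed at the translational start site of Oct4. For Ccna2 the study lists more than 1 MO, against the 5' untranslated region and/or the start site. The labels give a concentration of 0.6 mM for Oct4-MO and Ccna2-MO alike, whereas the study's methods give 0.75 mM for Ccna2-MO. Each array held RNA of 20 pooled embryos collected 43 h after hCG, at the mid-2-cell stage. RNA equal to 10 of these embryos was amplified in 2 rounds. The knockdowns were separate experiments, each with 3 pools of uninjected embryos cultured in parallel. These 6 uninjected arrays were used here to mark transcripts that already differed between the experiments without any injection. MO and experiment cannot be told apart in the injected arrays alone.

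Oct4 is the POU-domain transcription factor encoded by Pou5f1, and together with Sox2 it maintains pluripotency in the inner cell mass and in embryonic stem cells. Cyclin A2 is a regulatory subunit of cyclin-dependent kinases that act in DNA replication and in entry into mitosis. At the 2-cell stage the mouse embryo replaces transcripts inherited from the oocyte with transcripts of its own genome. An MO blocks translation of its target and need not lower the target's mRNA, so the arrays do not measure either knockdown.

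Each probe set has 1 intensity per array, on a linear scale, and differences are given as Oct4-MO minus Ccna2-MO on the scale of log2(value + 16), which understates the changes of dim probe sets. A probe set passed at a Benjamini-Hochberg adjusted p under 0.05 in limma. The labels do not say whether the pools of a group came from different collection days, so p-values measure the spread between these pools only. In RNA from pooled embryos, fewer embryos carrying a transcript and less of it in each embryo cannot be told apart. The median value of an array was 22.7 to 25.5, with 39.3 to 42.7% of probe sets under 16. The identity of the material was checked on 16 markers of oocytes and 2-cell embryos, such as Dppa3 and the zona pellucida genes. Their summed level was 26291 to 30055 on Oct4-MO arrays and 30253 to 34299 on Ccna2-MO arrays, so the groups did not overlap. It was 28895 to 30578 and 30625 to 32942 in the matching uninjected embryos, again without overlap, and the part of this in the results below was not tested. Of 25 markers of cumulus and granulosa cells, 20 were under 100 on every array of each injected group, and 0 passed the test. Gja1 (1.13, adjusted p = 0.117) and Cyp11a1 (0.55, adjusted p = 0.637), both brighter, were higher on every Oct4-MO array than on any Ccna2-MO array. The dim Hsd3b1 (-0.27, adjusted p = 0.431) was lower without overlap, and the bright Amhr2 (-0.69, adjusted p = 0.507) overlapped. The summed level of these markers was 1285 to 2052 on Oct4-MO arrays and 1224 to 1906 on Ccna2-MO arrays. Of 24 markers of blood, oviduct and sperm, 20 were under 100 in each injected group and 0 passed. Among all 18163 genes 0.952% passed, so 0 in lists this short says little. The dim Pax8 (0.34), Csf1r (0.63) and Prm1 (0.49) were higher without overlap on Oct4-MO arrays, and the dim Ovgp1 (-1.075) was lower. Krt18 (1.44) overlapped. At an unadjusted limma p under 0.05 were 4 higher and 0 lower markers, beside 1652 higher and 1652 lower of all genes. The sums of the 24 markers were 1447 to 1870 on Oct4-MO arrays and 1116 to 1968 on Ccna2-MO arrays.

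The transcripts targeted by the MOs were measured first. Pou5f1 had values of 2289, 1825 and 2466 on the Oct4-MO arrays and of 2140, 2463 and 1912 on the Ccna2-MO arrays. The groups overlapped throughout, and the difference was 0.01 (standard error 0.13, adjusted p = 0.98). Uninjected embryos of both experiments ranged from 1798 to 2112. Ccna2 had values of 2932, 2309 and 2391 on Oct4-MO arrays and 3183, 3205 and 4398 on Ccna2-MO arrays. Its message was thus lower on all 3 Oct4-MO arrays than on any Ccna2-MO array, but the difference of -0.49 (standard error 0.14, adjusted p = 0.102) did not pass. The uninjected embryos differed in the same direction, with 3293, 2969 and 3259 in the Oct4 experiment and 3949, 3444 and 4222 in the Ccna2 experiment.

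Of 44937 probe sets, 345 passed between the injected groups, or 0.768%. They comprised 168 higher in Oct4-MO embryos (0.374%) and 177 lower (0.394%), and on all 345 the groups of 3 arrays did not overlap, as was the case for 20.2% of all probe sets. The 0.768% rests on the spread shared by all 12 arrays. When limma was fitted to the 6 injected arrays alone, 0 probe sets passed, the smallest adjusted p was 0.112, and 5729 had an unadjusted p under 0.05, among them all 345. Leaving out 1 array at a time left 67 (without Oct4-MO replicate 2) to 242 (without Ccna2-MO replicate 3). Scaling also moved the balance of directions. Median centring gave 277 higher and 117 lower, and quantile normalization 285 higher and 144 lower. Reduced to the brightest probe set of each of 18163 genes, 173 genes passed (0.952%), 88 higher (0.485%) and 85 lower (0.468%). Counts over gene lists below use this brightest probe set. On any of their probe sets 268 genes passed (1.48%).

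By a loose rule, many of these transcripts also differed between the uninjected groups. The rule marked a transcript when the uninjected groups differed in the same direction with an unadjusted limma p under 0.05, or by at least 0.5 of the injected difference. It marked 184 of the 345 probe sets (53.3%), against 42.6% of all probe sets. The second part of the rule is easily met where the injected difference is near 0, so these shares are not like for like. With an adjusted p under 0.05 for the uninjected groups in limma, 18 of the 345 were marked. At gene level 92 of the 173 were marked, and 81 were not, 41 higher and 40 lower in Oct4-MO embryos. An unmarked transcript is not shown to be equal in the uninjected embryos. Between the uninjected groups themselves 41 probe sets passed (0.0912%), 13 higher and 28 lower in the Oct4 experiment, and 18 of the 41 also passed between the injected groups. Over the brighter 22469 probe sets the injected and uninjected differences had a Pearson correlation of 0.32 across probe sets. No array enters both differences, but injected and uninjected pools of a pair derived from the same embryo pool, and probe sets are not independent. When the uninjected difference was taken off the injected difference, with the error of all 4 groups, 1 probe set passed (0.00223%) and 2988 had an unadjusted p under 0.05. Of the 81 unmarked genes, 78 had an unadjusted p under 0.05 in that contrast, as had 15 of the 92 marked genes. This split follows largely from the rule, which uses the uninjected difference that the contrast takes off. It is no separate evidence on the unmarked genes.

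**Figure D1:**
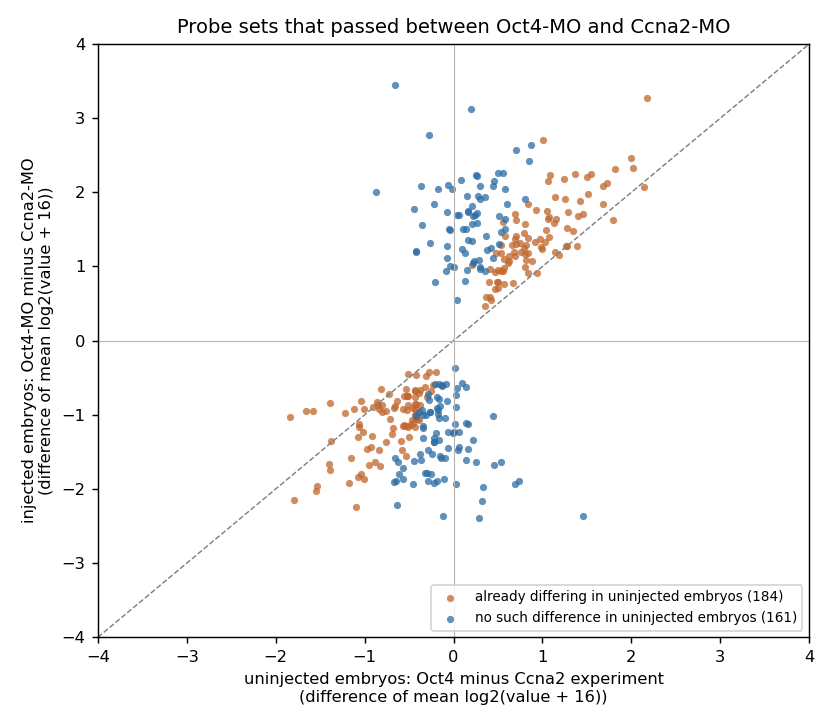
Difference between the injected groups (vertical axis, Oct4-MO minus Ccna2-MO) against the difference between the uninjected groups (horizontal axis, Oct4 minus Ccna2 experiment), both in mean log2(value + 16), for the 345 probe sets that passed between the injected groups; the dashed line marks equal differences. The 184 orange points were marked as already differing and lie toward the dashed line, and the 161 blue points have uninjected differences nearer to 0.

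Which injected group stood apart was read against all 6 uninjected arrays together. Among the 41 unmarked genes higher in Oct4-MO embryos, the 3 Oct4-MO arrays alone lay beyond the 6 uninjected arrays for 13, the 3 Ccna2-MO arrays alone for 19, both injected groups for 7 and neither for 2. Among the 40 lower genes these counts were 17, 17, 4 and 2. Over all probe sets, in either direction, the Oct4-MO arrays lay beyond the uninjected arrays for 8.93% and the Ccna2-MO arrays for 7.03%. These shares are not like for like, since the genes were counted only in the direction of their call. The genes were also chosen for injected groups that do not overlap and uninjected groups that were not marked. An injected group beyond the uninjected arrays follows largely from that choice, so the counts are no separate evidence on these genes. The unmarked genes below are ordered mainly by which injected group lay beyond the uninjected arrays, first Oct4-MO and then Ccna2-MO. Eif3b and Slc22a12 stand in the first part although neither injected group lay wholly beyond the uninjected arrays for them.

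Sox2 and Sox1 were higher in Oct4-MO embryos. Sox2, the partner of Oct4 on DNA in pluripotent cells, had values of 258, 397 and 228 on Oct4-MO arrays and 40.9, 77.3 and 75.4 on Ccna2-MO arrays. Every Oct4-MO array was above every other array, since the 6 uninjected arrays ranged from 80.4 to 113, above the Ccna2-MO arrays, and the difference was 1.94 (standard error 0.29, adjusted p = 0.0175). Against its own uninjected embryos the Oct4-MO difference was 1.30 and did not pass (adjusted p = 0.135 in limma). The study reported a rise of Sox2 short of significance and no change by single-embryo q-PCR, although its supplement lists Sox2 among upregulated genes with putative Oct4 sites. Sox1, a related factor of the neural lineage, was dimmer, with 142, 106 and 79.5 on Oct4-MO arrays, 18.4, 15.3 and 16.5 on Ccna2-MO arrays and 8.15 to 23 in uninjected embryos. Only the Oct4-MO arrays were raised, by 1.91 (standard error 0.25, adjusted p = 0.0121) over Ccna2-MO, while the other probe set of Sox1 was near background and gave 0.06. Sox1 is also 1 of the few genes that passed with an octamer, the DNA word read by Oct4 (ATGCAAAT on either strand), within 250 bases before and 50 after a RefSeq start. Of 14426 measured genes with a promoter sequence 242 (1.68%) held it, compared with 1 of 34 unmarked genes higher in Oct4-MO embryos, 0 of 31 unmarked lower genes and 1 of 75 marked genes. Both windows are shown for where the word lies, in RefSeq sequence of GRCm38.p6 on the strand of the gene, with the octamer in capitals. The Sox1 window is chr8:12395526-12395555 (plus strand), where the word starts at base 19 counted from the RefSeq start. The window of Patj, a scaffold of cell polarity that was marked (difference 1.40, adjusted p = 0.0421), is chr4:98546443-98546472 (plus strand), with the word on the opposite strand. A match is a run of letters and no evidence of binding.
Sox1: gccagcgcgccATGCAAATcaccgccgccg
Patj: agctgcctttaATTTGCATgggaaagatgc

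Sfi1, which encodes a centrin-binding protein of the centrosome, was among the genes furthest apart. Its values were 4819, 3225 and 3559 on Oct4-MO arrays and 469, 269.9 and 593 on Ccna2-MO arrays, with 491 to 1006 in uninjected embryos. Each Oct4-MO array was several times above all other arrays, and the difference was 3.12 (standard error 0.33, adjusted p = 0.00388). The probe set is of a class (_x_at) that can hybridise with other transcripts, and the other, dimmer Sfi1 probe set gave -0.57 and did not pass. Nudcd2, of a family of Hsp90 co-chaperones, had 1084, 1300 and 1922 on Oct4-MO arrays and 204, 223 and 238 on Ccna2-MO arrays. The groups lay far apart, by 2.57 (standard error 0.35, adjusted p = 0.0121), and the dimmer probe set of Nudcd2 also passed (1.51, adjusted p = 0.0444). Uninjected embryos were at 236 to 762, below the Oct4-MO arrays. Taz, the gene of the cardiolipin-remodelling enzyme tafazzin of mitochondria, was at 511, 479 and 739 and 105, 137 and 81.8, a difference of 2.25 (standard error 0.35, adjusted p = 0.022), and the uninjected arrays ranged from 97.6 to 286. The other Taz probe set gave 0.04 and did not pass. Emc9, a subunit of the complex that inserts proteins into the endoplasmic reticulum membrane, was at 191, 162 and 88.4 against 6.06, 40.5 and 38.3. The Oct4-MO arrays were above all uninjected arrays (32.4 to 74.5), and the difference of 1.94 (standard error 0.40, adjusted p = 0.0496) was close to the threshold. With the pair of an injected and an uninjected pool as a block, Emc9 had an adjusted p of 0.0503 and no longer passed. Zfp36l2, an RNA-binding protein that promotes mRNA decay and is needed in the oocyte, was at 1494, 1569 and 1662 against 921, 734 and 415, a difference of 1.24 (standard error 0.24, adjusted p = 0.0416). Uninjected embryos had 686 to 1187, below the Oct4-MO arrays.

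Transcripts low in Oct4-MO embryos included Eif3e and Eif3b. Eif3e, a subunit of the initiation factor that brings mRNA to the small ribosomal subunit, had 204, 187 and 267 on Oct4-MO arrays and 779, 405 and 561 on Ccna2-MO arrays. Both injected groups were below the 6 uninjected arrays (919.7 to 1288), and the Oct4-MO arrays were the lower of the pair, with a difference of -1.31 (standard error 0.23, adjusted p = 0.0292). Of 4 Eif3e probe sets 2 passed. Eif3b, the scaffold subunit of the same factor, was at 88.5, 23.8 and 36.9 and 192, 209.8 and 243. The lowest Ccna2-MO array was above the highest Oct4-MO array, but the uninjected arrays of the Oct4 experiment (226, 76.9 and 140.2) reached down into the Oct4-MO range, and the difference was -1.93 (standard error 0.40, adjusted p = 0.0475). The study named both genes from these arrays, so they are not independent evidence of a direction. Of 44 measured initiation factors these were the only ones that passed on their brightest probe set, where 0.952% of all genes did, with 14 above 0 and 30 below 0 and a median of -0.22. On a dimmer probe set Eif5b (-1.17, adjusted p = 0.0111) and Eif4a1 (-0.74, adjusted p = 0.034) were also lower, whereas Eif2b2 was higher on 2 probe sets (1.74 and 1.66, adjusted p = 0.0243 and 0.0274), and all 3 genes were marked on these probe sets. The median in uninjected embryos was -0.19, and the injected median was -0.10 after quantile normalization and -0.14 after median centring.

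From the list of genes of 2-cell genome activation, Trim43a and Slc34a2 were lower in Oct4-MO embryos. Trim43a, a tripartite-motif gene switched on at the 2-cell stage, had 2080, 1376 and 1494 on Oct4-MO arrays and 2875, 2583 and 3146 on Ccna2-MO arrays. All Oct4-MO arrays were below all Ccna2-MO arrays, which in turn lay just under the uninjected range of 3156 to 3888, and the difference was -0.81 (standard error 0.14, adjusted p = 0.0292). Slc34a2, a sodium-dependent phosphate transporter, was at 1671, 1451 and 1598 against 2423, 2080 and 2935. The Oct4-MO arrays were tightly grouped and lower, with a difference of -0.64 (standard error 0.13, adjusted p = 0.0416), while the Ccna2-MO arrays overlapped the uninjected range of 2424 to 2900. Of 36 measured genes of the activation list these 2 passed, against 0.952% of all genes, and Arg2 passed on a dimmer probe set (-1.02, adjusted p = 0.0413). The list had 16 genes above and 20 below 0, and at an unadjusted p under 0.05 it held 6 higher and 7 lower genes, such as Tbx3 at 1.32 (adjusted p = 0.0768) and Sp110 at -0.91 (adjusted p = 0.0945), which did not pass. At that unadjusted p 1652 of all 18163 genes were higher and 1652 lower. The median over the list was -0.06, and it was 0.07 after quantile normalization and 0.02 after median centring.

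Tfrc, Ctsb and Prkag1 were also lower in Oct4-MO embryos. Tfrc, the transferrin receptor that takes up iron, had 689, 492 and 251 in Oct4-MO embryos and 1937, 930.5 and 1384 in Ccna2-MO embryos. The groups did not overlap, and the difference was -1.59 (standard error 0.32, adjusted p = 0.0423). Uninjected embryos of the Oct4 experiment were at 1428, 1227 and 1221 and those of the Ccna2 experiment at 2092, 1834 and 2228, a difference of -0.66 with an unadjusted p of 0.0579, just outside the rule. Of 3 Tfrc probe sets 2 passed and the remaining one gave 0.21. Ctsb, the lysosomal protease cathepsin B, was at 726, 401 and 414 against 1824, 990.1 and 2563, with 1297 to 2629 in uninjected embryos. The Oct4-MO arrays were lowest of all 12, with a difference of -1.72 (standard error 0.31, adjusted p = 0.0303) and a further probe set that passed. Over 5 Ctsb probe sets the differences ranged from -1.72 to 0.80. Prkag1, a regulatory subunit of the energy sensor AMPK, was at 41.9, 31.4 and 14.2 on Oct4-MO arrays and 209.5, 134 and 108 on Ccna2-MO arrays. All Oct4-MO arrays were below the uninjected range of 118 to 218, as was 1 Ccna2-MO array, with a difference of -1.89 (standard error 0.33, adjusted p = 0.0299).

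Acyp1, an acylphosphatase, was -3.05 from its own uninjected embryos in the Oct4 experiment and -0.75 in the Ccna2 experiment on the log2 scale. It had 24.1, 104 and 109 on Oct4-MO arrays, 266, 352 and 336 on Ccna2-MO arrays and 463 to 706 in uninjected embryos. Both injected groups were therefore below every uninjected array, and Oct4-MO was the lower, with a difference of -1.97 (standard error 0.37, adjusted p = 0.034). Its other 2 probe sets gave -1.77 and -1.88 and did not pass. Inpp5e, a phosphoinositide phosphatase of the primary cilium, was at 25.8, 21.3 and 40.0 against 155, 76.4 and 139, again with both groups below all uninjected arrays (177 to 343), and the difference was -1.60 (standard error 0.33, adjusted p = 0.0465). The other Inpp5e probe set gave 0.42 and did not pass.

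Kat2a and Rif1 were unmarked as well. Kat2a, the histone acetyltransferase Gcn5, had 167, 199 and 129 on Oct4-MO arrays and 898, 817 and 367 on Ccna2-MO arrays. Its groups did not overlap, with a difference of -1.89 (standard error 0.37, adjusted p = 0.0416), but the other 2 Kat2a probe sets gave 0.83 and -0.53 and did not pass. Rif1, which controls replication timing and telomere ends, was at 1336, 1290 and 1279 against 1892, 2089 and 1899, with the Oct4-MO arrays close to each other and below all uninjected arrays (1726 to 2352). Its difference was -0.58 (standard error 0.12, adjusted p = 0.0489), and the other 3 Rif1 probe sets gave -0.60, -0.14 and -0.36 and did not pass. Slc22a12, a urate transporter, was at 78, 128 and 90.2 against 303, 348 and 359, a difference of -1.64 (standard error 0.33, adjusted p = 0.0438). The uninjected arrays ranged from 109 to 365 and overlapped both injected groups. The other Slc22a12 probe set gave 0.11 and did not pass.

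**Figure D2:**
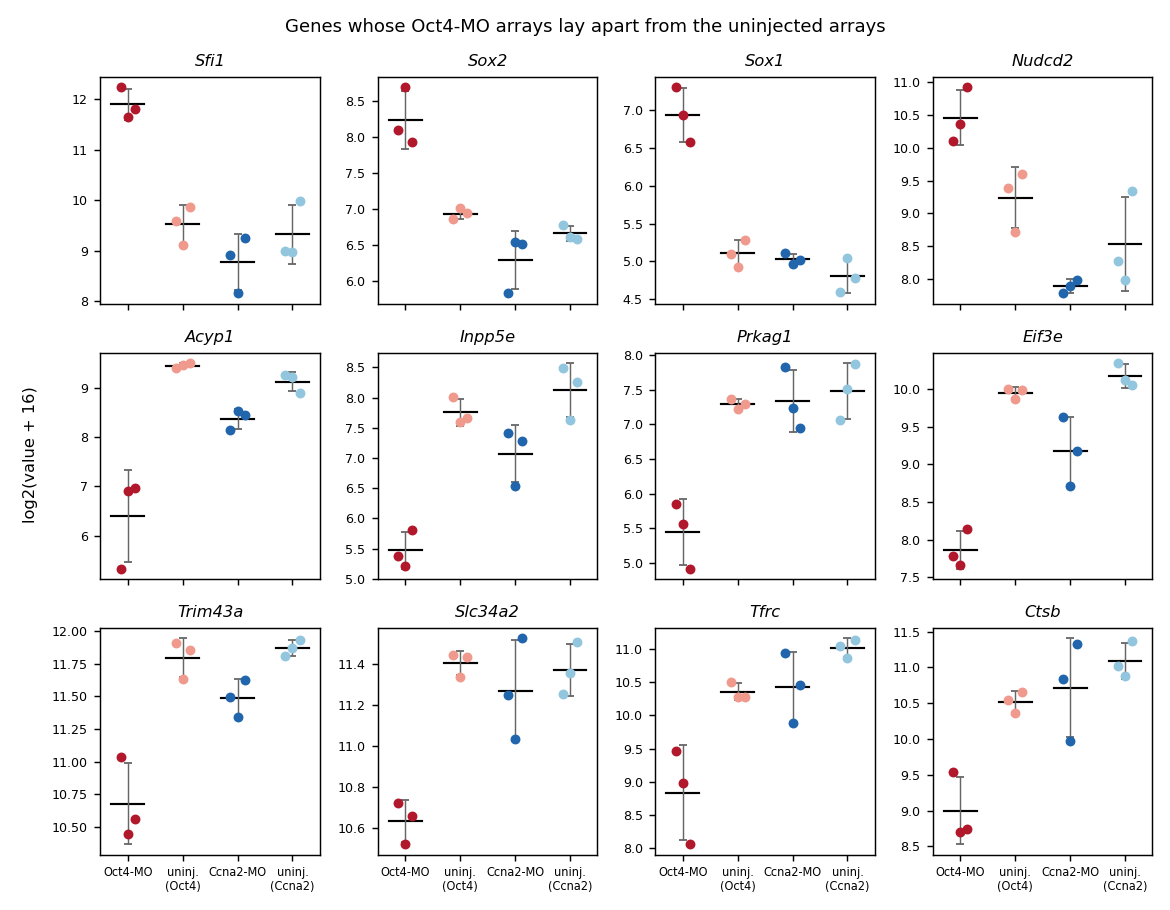
Values of 12 unmarked genes on every array as log2(value + 16), by group; points are arrays (n = 3 each), black lines the group means and grey bars the SD. Sfi1, Sox2, Sox1 and Nudcd2 are highest on the Oct4-MO arrays, and the other 8 genes are lowest there.

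Another set of differences came from the Ccna2-MO arrays. Fzd7, a Wnt receptor, had 1372, 967 and 704 on Oct4-MO arrays and 340.5, 178 and 289 on Ccna2-MO arrays. Uninjected embryos ranged from 815 to 1126, so the Oct4-MO arrays were at the uninjected level and the Ccna2-MO arrays were apart, by 1.85 (standard error 0.27, adjusted p = 0.0155). Ndufc1, a subunit of respiratory complex I, was at 1641, 796 and 962 and 306, 283 and 392, with 788 to 1442 in uninjected embryos. All Ccna2-MO arrays were the lowest of the 12, and the difference was 1.69 (standard error 0.29, adjusted p = 0.029). Cenpf, a kinetochore and microtubule-binding protein of mitosis, was bright and tightly grouped at 1738, 1757 and 1619 against 965, 1044 and 908. The uninjected range of 1385 to 1716 lay near the Oct4-MO arrays, and the difference was 0.80 (standard error 0.12, adjusted p = 0.0155). The other Cenpf probe sets had differences of 0.88 and 0.68 and did not pass.

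Pdgfa, a growth factor ligand of the early embryo, had 1262, 1038 and 762 on Oct4-MO arrays and 302, 109 and 223 on Ccna2-MO arrays. Uninjected arrays spread widely, from 303 to 1041, with the Ccna2-MO arrays just below them, and the difference was 2.26 (standard error 0.41, adjusted p = 0.0323). Lima1, an actin cross-linker, was at 311, 182 and 515 and 96.2, 77.5 and 46.6, with a difference of 1.90 (standard error 0.37, adjusted p = 0.0414). Uninjected embryos of the Oct4 experiment were at 323, 175 and 296 and those of the Ccna2 experiment at 125, 153 and 145, a difference of 0.80 with an unadjusted p of 0.053. The zinc finger gene Zfp768 was at 121, 88.4 and 84.4 against 20.3, 3.96 and 12.4, a difference of 2.04 (standard error 0.35, adjusted p = 0.029). The Ccna2-MO arrays were the lowest of the 12, and uninjected embryos had 24.1 to 95.5. The transcript 4930550C14Rik was at 550.1, 678 and 532 and 141, 228 and 204, with 382 to 718 in uninjected embryos and a difference of 1.56 (standard error 0.25, adjusted p = 0.0245).

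Other transcripts were raised on the Ccna2-MO arrays and therefore lower in the Oct4-MO group. Pfdn4, a subunit of the prefoldin chaperone, had 836, 1351 and 1275 on Ccna2-MO arrays and 313, 385 and 379 on Oct4-MO arrays. The uninjected arrays of both experiments (367 to 482) overlapped the Oct4-MO arrays, and the difference was -1.62 (standard error 0.21, adjusted p = 0.0121). Tk2, the mitochondrial thymidine kinase, was at 97.7, 168 and 139.6 on Ccna2-MO arrays and at 24.9, 26.4 and 22.1 on Oct4-MO arrays. The Oct4-MO arrays lay within the uninjected range of 20.1 to 36.4 and the Ccna2-MO arrays far above it, and the difference was -1.87 (standard error 0.26, adjusted p = 0.0141). Gtf2b, the general transcription factor TFIIB, had 953, 1437 and 1359 against 642, 512 and 523, with uninjected embryos at 425 to 572 and a difference of -1.12 (standard error 0.20, adjusted p = 0.0312). Of 78 RNA polymerase subunits and general transcription factors it alone passed on its brightest probe set, 1.28% against 0.952% of all genes. Cdk9, the kinase of elongating RNA polymerase II, was higher on a dimmer probe set (2.77, adjusted p = 0.0121).

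Cxxc1, the CpG-binding subunit of a histone H3 methyltransferase complex, had 286, 265 and 326 on Ccna2-MO arrays and 107, 55.8 and 61.9 on Oct4-MO arrays. The Ccna2-MO arrays were above the uninjected range of 54.1 to 137 and the Oct4-MO arrays within it, and the difference was -1.80 (standard error 0.28, adjusted p = 0.0229). Ufl1, the ligase that attaches the ubiquitin-like protein UFM1, was at 83.1, 152 and 192 against 29.1, 13.5 and 12.9, with uninjected arrays at 8.83 to 52.1 and a difference of -2.17 (standard error 0.40, adjusted p = 0.0343). Trmt2b, a tRNA methyltransferase, was at 99, 121 and 107 against 15.3, 43.3 and 15.9, with uninjected arrays at 26.1 to 52.8 and a difference of -1.68 (standard error 0.29, adjusted p = 0.028). The other Trmt2b probe set gave -0.12 and did not pass. Rasl11b, a small GTPase of the Ras superfamily, differed from its own uninjected embryos by 3.94 in the Ccna2 experiment and by 1.32 in the Oct4 experiment. It had 1175, 1162 and 866 on Ccna2-MO arrays, 427, 253 and 172 on Oct4-MO arrays and 28.6 to 155 in uninjected embryos, so that it was above the uninjected arrays in both injected groups and more so after Ccna2-MO, with a direct difference of -1.93 (standard error 0.39, adjusted p = 0.0443).

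For a few genes the injected groups lay on opposite sides of the uninjected embryos. Zfp219, a zinc finger protein, had 363, 474 and 421 on Oct4-MO arrays and 87.5, 74.7 and 106 on Ccna2-MO arrays. The 6 uninjected arrays, at 129 to 276, fell between the groups without overlap, and the direct difference was 2.05 (standard error 0.31, adjusted p = 0.0189). Kifc5b, a minus-end-directed kinesin of the spindle, was at 316, 178 and 189 and 46.7, 30.7 and 41.1, with uninjected arrays at 60.0 to 155 and a difference of 2.10 (standard error 0.36, adjusted p = 0.028). Mpzl1, a membrane glycoprotein that binds the phosphatase Shp2, showed the reverse order at 173, 197 and 234 and 793, 664 and 735. Uninjected arrays at 260.4 to 462 again lay between, and the difference was -1.79 (standard error 0.22, adjusted p = 0.0115). Irx3, an Iroquois homeobox gene, had 349, 332 and 138 on Oct4-MO arrays and only 4.52, 5.39 and 17.9 on Ccna2-MO arrays. Its difference of 3.45 (standard error 0.59, adjusted p = 0.028) was the largest of all genes named here, but the uninjected arrays scattered from 5.68 to 128 and overlapped the Ccna2-MO group. Sox11, a further Sox family factor, was at 169, 72.9 and 63.8 and 10.6, 17.1 and 7.30, a difference of 2.00 (standard error 0.38, adjusted p = 0.0366). Its uninjected groups differed in the opposite direction, by -0.88 (unadjusted p = 0.0387), and the other 5 Sox11 probe sets did not pass. Over all probe sets that passed, 3 had uninjected groups that differed the opposite way at an unadjusted p under 0.05.

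**Figure D3:**
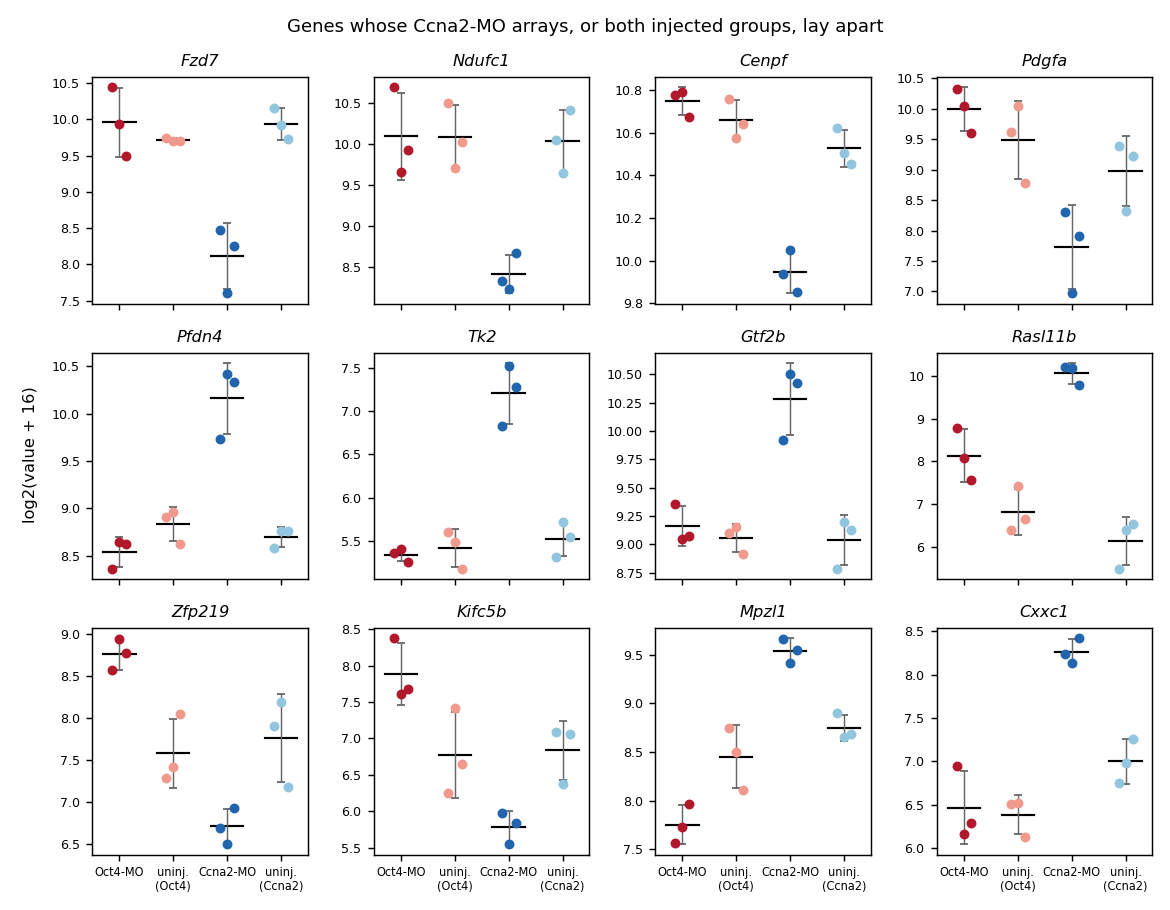
Values of 12 further unmarked genes on every array as log2(value + 16), by group; points are arrays (n = 3 each), black lines the group means and grey bars the SD. In the upper row the Ccna2-MO arrays are lowest, in the middle row and for Cxxc1 they are highest, and Zfp219, Kifc5b and Mpzl1 place the injected groups on opposite sides of the uninjected arrays.

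The marked genes were led by transcripts that separated the experiments whether or not the embryos had been injected. Wee2, the oocyte kinase that holds Cdk1 inactive, had 3548, 3958 and 3519 on Oct4-MO arrays and 1453, 1113 and 997 on Ccna2-MO arrays. Uninjected embryos repeated this split, with 3151, 2830 and 3065 and 844, 1089 and 691, so the injected difference of 1.63 (standard error 0.17, adjusted p = 0.00388) stood beside an uninjected difference of 1.79. The probe set is of the class that can cross-hybridise, and the other, nearly as bright Wee2 probe set gave -0.17 and did not pass. Tmprss2, a transmembrane serine protease, was at 651, 379.5 and 462 and 78.5, 79.6 and 93.5, and Paqr5, a membrane progesterone receptor, at 724, 758 and 614 and 143, 115 and 126. Their injected differences were 2.33 (adjusted p = 0.00388) and 2.31 (adjusted p = 0.00388), against 2.02 and 1.81 without injection. For each of these genes the other 3 probe sets were dim and did not pass. Ddo, D-aspartate oxidase, was at 279, 119 and 136 against 16.1, 16.1 and 19, a difference of 2.46 (standard error 0.34, adjusted p = 0.0134), with 1.99 in uninjected embryos. Tbx21, the T-box factor of T helper cells, was at 391, 367 and 429 against 48.6, 55.6 and 124, a difference of 2.25 (standard error 0.42, adjusted p = 0.034), with 1.55 in uninjected embryos.

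Cebpb and Ccnjl were marked, and their differences were larger with injection than without. Cebpb, a bZIP transcription factor induced by stress and cytokines, had 132, 304 and 204 on Oct4-MO arrays and 15.7, 7.63 and 34.3 on Ccna2-MO arrays. Uninjected embryos of the Oct4 experiment were at 35.5, 57.7 and 60.4, above those of the Ccna2 experiment at 8.94, 15.3 and 29.8, so the difference was 1.01 without and 2.71 (standard error 0.38, adjusted p = 0.0138) with injection. The cyclin-like gene Ccnjl was at 710.3, 626 and 346 against 92.2, 94.7 and 120.0, with differences of 1.08 without and 2.23 (standard error 0.34, adjusted p = 0.0183) with injection. For the change in the difference the unadjusted p was 0.00786 for Cebpb and 0.0316 for Ccnjl, and neither passed after adjustment. The other probe sets of both genes did not pass. Atf4, the bZIP factor of the integrated stress response, was at 2730, 3021 and 3100 against 2199, 2040 and 1817, a difference of 0.55 (standard error 0.11, adjusted p = 0.0428) next to 0.42 in uninjected embryos. A less bright Atf4 probe set gave -0.01 and did not pass.

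Among marked genes lower in Oct4-MO embryos were parts of the ribosome, the respiratory chain and the splicing machinery. Rplp2, a protein of the ribosomal stalk, had 1511, 1089 and 1432 on Oct4-MO arrays and 2449, 2201 and 3021 on Ccna2-MO arrays, with 1626, 1372 and 1727 and 3137, 2775 and 3667 in the uninjected groups. The difference was -0.92 (standard error 0.16, adjusted p = 0.0303) after injection and -1.01 without. Atp5g1, subunit c of the mitochondrial ATP synthase, was at 402, 362 and 273 against 588, 736 and 846, and the uninjected embryos were further apart than the injected ones, by -1.83 against -1.03 (standard error 0.20, adjusted p = 0.0418). Scaf4, which couples RNA polymerase II to mRNA 3' end formation, was at 1715, 1723 and 1638 against 3093, 2826 and 2620. Its difference was -0.74 (standard error 0.10, adjusted p = 0.0124), and -0.55 in uninjected embryos. Another Scaf4 probe set passed at -0.76. The splicing regulator Srsf10 (2250, 1980 and 1833 against 3182, 3324 and 3198) differed by -0.68 (standard error 0.11, adjusted p = 0.022), and Wdr33, of the polyadenylation factor, (442, 432 and 562 against 903, 843 and 907) by -0.87 (standard error 0.17, adjusted p = 0.0405). Uninjected differences were -0.25 and -0.37.

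Further marked genes spread over several functions. Gatad2a, of the NuRD chromatin complex, was at 3933, 3630 and 4056 against 5300, 5703 and 4863, a difference of -0.45 (standard error 0.09, adjusted p = 0.0482), with -0.52 in uninjected embryos. Kif23, a kinesin of cytokinesis, was at 1020, 938 and 732 against 1522, 2342 and 1879, a difference of -1.07 (standard error 0.18, adjusted p = 0.028), with -0.47 in uninjected embryos. Kif27, a kinesin-4 family member of cilia, was at 22, 50.3 and 31.2 against 149, 96.4 and 158, a difference of -1.59 (standard error 0.29, adjusted p = 0.034), with -1.16 in uninjected embryos. Arfgap2, which acts on the Arf GTPase of Golgi vesicles, was at 81.5, 122 and 76.1 against 653, 330.2 and 549. Its Oct4-MO arrays were below all others, with a difference of -2.24 (standard error 0.40, adjusted p = 0.0295) and -1.09 in uninjected embryos, while the other 3 Arfgap2 probe sets did not pass. The remaining marked genes of this size were Iqcf1 at -2.03 (adjusted p = 0.0249), Pih1d1 at -1.96 (adjusted p = 0.0281), Sh2d3c at -1.69 (adjusted p = 0.0478) and the lysosomal sulfatase Arsb at -1.64 (adjusted p = 0.0489). Their differences in uninjected embryos were -1.55, -1.54, -0.82 and -0.88, in the same order. Other probe sets reached 0.58 for Pih1d1, 0.35 for Arsb and 0.05 for Gatad2a and did not pass.

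**Figure D4:**
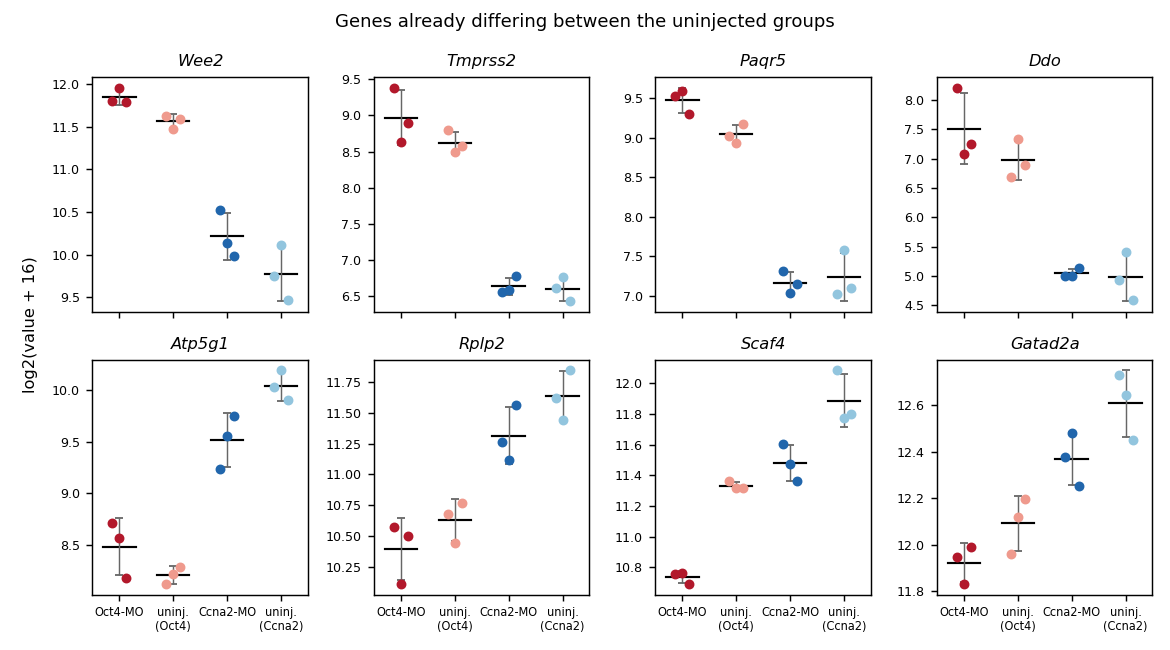
Values of 8 marked genes on every array as log2(value + 16), by group; points are arrays (n = 3 each), black lines the group means and grey bars the SD. For each gene the mean of the Oct4-MO arrays lies nearer to the uninjected arrays of its own experiment than to the Ccna2-MO arrays.

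The gene lists showed small shifts with few members that passed. Over all 18163 genes the median difference was -0.0044, with 88 genes higher and 85 lower (0.952% together). The list counts here and below should be read against that share. Scaling moved the median of the brighter probe sets from -0.05 to 0.01 (quantile normalization) or 0.03 (median centring). That was enough to turn the sign of the injected median for 10 of the 22 lists under at least 1 of these scalings, so medians near 0 have no settled direction. Among 49 genes of the pluripotency and Oct4 network 1 was higher (Sox2) and 1 lower (Rif1), with 24 above and 25 below 0. Among 35 genes that the study named or assayed after Oct4 knockdown, which were chosen on these arrays, 1 was higher and 2 lower, with a median of -0.36. The same list had a median of -0.22 between the uninjected groups. In the cell cycle lists 1 of 70 cyclins, Cdks and their regulators passed (Wee2, marked, 1.43%). Cdk9, of the same list and unmarked, was higher on a dimmer probe set (2.77, adjusted p = 0.0121). Of the mitosis genes 3 of 108 passed (2.78%, Cenpf and Kifc5b higher, Kif23 lower), and of the DNA replication and repair genes 0 of 93, against 0.952% of all genes. Unadjusted p under 0.05 was reached by 26 of those 93 genes, 12 higher and 14 lower, and by 1652 higher and 1652 lower of all 18163 genes. Of 70 maternal and oocyte transcripts 1 passed (Zfp36l2), Rnf114 was lower on a dimmer probe set, and the median was -0.09, against 0.02 after quantile normalization and -0.01 after median centring.

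Several lists of housekeeping machines had medians below 0 in the injected and the uninjected comparison alike. Cytosolic ribosomal proteins had 37 of 47 genes below 0 and a median of -0.36, next to -0.33 between uninjected groups, and 1 passed (Rplp2). The injected median was -0.22 after quantile normalization and -0.28 after median centring. The proteasome list had a median of -0.23 against -0.17 in uninjected embryos, and stayed below 0 at -0.09 and -0.15 under the same scalings. On the brightest probe set 0 of its 38 genes passed, and Psmd9 passed on another (-1.90, adjusted p = 0.0368). At an unadjusted p under 0.05 were 8 of these genes, beside 1652 higher and 1652 lower of all 18163. Of 103 splicing and 3' end processing genes 3 passed (2.91%, against 0.952% of all genes), all lower and all marked. Pabpn1 and Srsf2 passed as lower and Snrpb2 as higher on a dimmer probe set. The list had a median of -0.11 that became 0.02 after quantile normalization and -0.03 after median centring. Of 158 chromatin genes 2 passed, both lower, with 102 below 0 and a median of -0.11 that was -0.0084 after quantile normalization and -0.04 after median centring. Kdm5c was lower on 2 other probe sets and Kdm2b higher on another. Among 88 genes of the respiratory chain and citric acid cycle 1 was higher (Ndufc1) and 1 lower (Atp5g1), and Cox6a1 was lower on a dimmer probe set.

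Stress and death lists held 1 gene that passed on its brightest probe set. Of 50 immediate early and stress genes 1 passed (Atf4, marked), with a median of -0.02 that was above 0 under both scalings, and Hspa5 was higher on a dimmer probe set. Of 48 p53 and apoptosis genes 0 passed, with 8 at an unadjusted p under 0.05 and a median of 0.11. Of 42 interferon response genes 0 passed, with 7 at an unadjusted p under 0.05 and a median of -0.0033. Among all 18163 genes 0.952% passed, and 1652 higher and 1652 lower genes had an unadjusted p under 0.05. Of 65 centrosome and cilium genes 1 was higher (Sfi1) and 1 lower (Inpp5e), and of 50 membrane transporters 1 was lower (Tfrc), with Slc39a6 lower on a dimmer probe set. Trim43a was the only one of the 16 identity markers that passed.

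**Figure D5:**
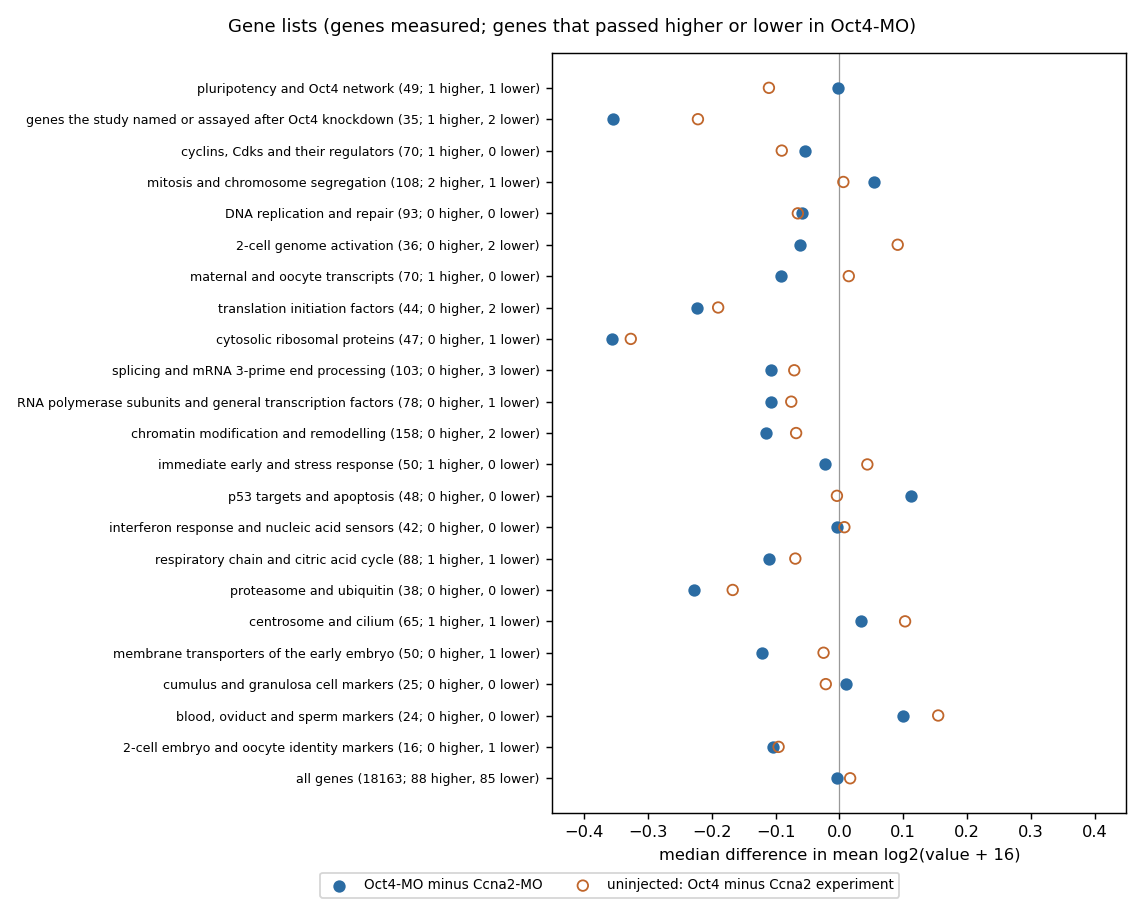
Median difference in mean log2(value + 16) over the measured genes of each list, between the injected groups (filled, Oct4-MO minus Ccna2-MO) and between the uninjected groups (open, Oct4 minus Ccna2 experiment); labels give genes measured and genes that passed. Cytosolic ribosomal proteins lie at -0.36 and -0.33, and most other lists lie within 0.2 of 0 in both.

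The firmness of the single calls differed. Of the 345 probe sets 39 passed in every fit that left out 1 of the 12 arrays, 14 of them unmarked and 25 marked. Of the 59 genes named here that passed, 12 did so in each of those fits, namely Sfi1, Sox1, Nudcd2, Pfdn4, Tk2 and Mpzl1 among the unmarked and Wee2, Tmprss2, Paqr5, Ddo, Cebpb and Scaf4 among the marked. The other 47 lost their call at least once, and all 59 kept their direction. Of these 59 genes 39 had several probe sets, and for 5 another probe set passed as well. Without Oct4-MO replicate 2, Sox2 had a difference of 1.72 (adjusted p = 0.0611), Fzd7 of 1.85 (adjusted p = 0.0524) and Cenpf of 0.78 (adjusted p = 0.0574), which was the only such fit in which these 3 did not pass. Arsb, Atf4, Emc9 and Wdr33, all near the threshold, lost their calls in each of the 12 fits. A further 17 genes lost theirs in 9 to 11 fits, among them Tfrc, Acyp1, Eif3b, Kat2a, Rif1 and Inpp5e, and 26 in 1 to 7 fits, among them Eif3e in 7, Ctsb in 6 and Trim43a in 5.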

How the data were processed

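Gene expression was measured on 12 Affymetrix 430 2.0 arrays, 3 for each of 4 groups. The deposited table holds 1 intensity per probe set and array, on a linear scale, which the authors obtained with dChip. Its version and model options were not given in the sources used here. Groups came from the labels. After 64 control probe sets were left out, 44937 remained, of which 34849 had 1 gene symbol in the platform annotation, 928 several and 9160 none, and a check by gene ID changed 0 symbols. Groups were compared on log2(value + 16) in 1 linear model with 4 group means over all 12 arrays, with an intensity trend (R 4.3.3, limma 3.58.1), so the uninjected arrays entered the spread but no mean of the direct difference. Signal over background and 3 arrays per group limit the precision. The steps were tested on simulated data.

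Named genes were Pou5f1, Ccna2 and, on the brightest probe set in the brighter part of the array, per direction the 14 unmarked and 6 marked genes with the largest difference among those that passed without overlap, plus up to 4 genes per list and the 10 that ranked first by p in the difference of the changes. Of these the text gives Pou5f1, Ccna2 and those that passed. Exceptions are Patj, Tbx3, Sp110, the genes named on a dimmer probe set alone and some markers. These markers are Gja1, Cyp11a1, Hsd3b1, Amhr2, Pax8, Csf1r, Prm1, Ovgp1 and Krt18. All exceptions were chosen after their values were seen. The members and lists were chosen with earlier results of these data known.

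By the treatment protocol in the labels, uninjected controls derived from the embryo pool of the injected embryos, and each uninjected sample names the injected sample it ran beside, which pairs them within an experiment. After group means were subtracted, paired arrays correlated at 0.105, 0.0613 and -0.000156 in the Oct4 experiment and -0.015, 0.111 and 0.15 in the Ccna2 experiment. The labels do not pair numbers across experiments. Alternatives were the arrays in the fit, the variance prior, the pseudocount, a filter on dim probe sets, 2 normalizations, array weights, 2 replicate blocks, a fold threshold, the methods' t-test, 3 rules for marking, means over probe sets and leaving out each array.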

Additional observations from a re-analysis of the deposited data

Results flagged for a closer look

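One probe set of Sirt5, a mitochondrial desuccinylase, differed between the knockdowns in its change from the uninjected embryos, by 1.93 in log2 units (adjusted p = 0.0238 in limma, standard error 0.21). Its values were 7.08, 7.17 and 12.6 on Oct4-MO arrays and 1.73, 1.94 and 2.27 in their uninjected embryos, against 2.01, 1.58 and 1.74 on Ccna2-MO arrays and 26.3, 40.8 and 32.9 in theirs. The Ccna2 uninjected arrays alone stood above the dim range, and the direct difference of 0.48 did not pass (adjusted p = 0.124). It is not the brightest of 3 Sirt5 probe sets, and the cause was not tested.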

How the results depend on the processing

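The count of 345 probe sets between the injected groups became 0 in the fit of the 6 injected arrays and 0 by the methods' t-test (5383 with an unadjusted p under 0.05, smallest adjusted p 0.172), 641 without the intensity trend, 714 over the brighter probe sets alone and 120 with array weights. It was 299 to 429 under the other alternatives. Leaving out single arrays gave 67 to 242. For Oct4-MO replicates 1, 2 and 3 the counts were 144, 67 and 84, for their uninjected replicates 136, 206 and 127, for Ccna2-MO replicates 240, 148 and 242 and for their uninjected replicates 183, 214 and 201. The higher and lower shares moved with scaling, from 168 and 177 to 277 and 117 (median centring) or 285 and 144 (quantile normalization). The 41 probe sets between uninjected groups became 0 in the fit of the 6 uninjected arrays (6358 with an unadjusted p under 0.05), 0 by the methods' t-test (5893) and 221 with array weights, and 2 to 48 without single arrays. Without uninjected replicates 1, 2 and 3 of the Oct4 experiment the counts were 2, 5 and 12, without replicate 1 of the Ccna2 experiment 14, and without Oct4-MO replicates 2 and 3 27 each. The single probe set of the difference of the changes became 0 without the trend, with 64 added, over the brighter probe sets, with either replicate block and by the methods' t-test, and 0 to 3 without single arrays. Marked probe sets were 18 with an adjusted p for the uninjected groups. With means over probe sets 34 list entries passed in place of 28, and with any probe set of a gene, chosen after seeing the data, 45. Pou5f1, near 0, had its highest value after quantile normalization (0.18), and without single arrays it ranged from -0.079 (without Oct4-MO replicate 3) to 0.136 (without Oct4-MO replicate 2) and was also below 0 without Oct4-MO replicate 1 (-0.026) and without Ccna2-MO replicate 3 (-0.077). The cause was not tested.

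With the pair of an injected and an uninjected pool as a replicate block, 371 probe sets passed between the injected groups and 41 between the uninjected groups, and among the named genes only Emc9 lost its call. With the shared numbers 1 to 3 as a block the counts were 299 and 29, although these numbers do not pair arrays across experiments, where same-numbered injected arrays had correlations of 0.0743, 0.127 and -0.0397. Changes smaller than the spread of 3 pools, and those of probe sets near background, could not be resolved at this number of arrays.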
